A study of Homo sapiens with 6 samples.

Results

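The genes described here encode the proteins that license replication origins and build the replication fork. A list of 56 gene symbols was taken, chosen with earlier results of these data known. Each gene was represented by the brightest probe set annotated to that symbol alone on the Affymetrix whole-genome human array used. All 56 had such a probe set, out of 19775 genes on the array, and all 56 were among the 13053 genes called measured, meaning that at least 1 pool had a mean signal above 70.2, the median of all values. The 3 groups were made from WM-266.4 cells, an established human line of metastatic melanoma origin. In siPIR, cells received 200 pmol of a pool of 4 siRNA duplexes against PIR, which encodes the iron-binding nuclear protein pirin. In siCTR, they received 200 pmol of a pool of 4 non-targeting duplexes, and in NO they went through transfection with Oligofectamine but no oligonucleotide. All cells were transfected in medium without serum and harvested 72 h later. For every group 3 RNA extractions were combined in equal amounts, and the labelled target was placed on 2 arrays, so each group is 1 RNA pool with 2 repeat hybridisations. Differences between pools therefore have no biological replicate behind them and no test of the conditions was possible. The spread between repeat arrays measures hybridisation error only.

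Origins are licensed in G1, when the origin recognition complex (ORC) together with CDC6 and CDT1 loads the ring-shaped MCM2-7 helicase onto DNA. On entry into S phase the kinase CDC7-DBF4 and cyclin E or cyclin A kinases bring CDC45 and the GINS complex to MCM2-7, which turns the loaded ring into the active helicase, and primase and the polymerases then copy both strands behind it. Many of these genes are known targets of E2F transcription factors and are transcribed mainly around the start of S phase, so their RNA is abundant in proliferating cells.

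Facts of the whole series bear on what follows. PIR itself gave 392.3 and 381.5 in siPIR, 13544 and 13179.9 in siCTR, and 13990.2 and 14153 in NO and was -5.09 against siCTR and -5.17 against NO on the log2 scale, which checks the labels. Of 8 melanocyte lineage markers, 7 had a probe set, and all 7 were bright (a pool mean above 458.4, the 75th percentile of all values), with pool means of 5848 or more and 0 called. The summed signal of 6 fibroblast markers was 23972 and 23079 in siPIR, against 14615 and 15819 in siCTR and 12753 and 12635 in NO, nearly all of it from COL1A2, a collagen gene. Besides COL1A2, the fibroblast markers COL1A1 and LUM also passed the filter, so 3 of 6 were measured. Neither was bright, with pool means from 120.45 to 205.95 for COL1A1 and from 107.5 to 166.8 for LUM. The other fibroblast markers, PDGFRA, THY1 and DCN, were below the measured range in all pools. Of the keratinocyte, leukocyte and endothelial markers with a probe set, 1 of 5, 2 of 4 and 2 of 5 were measured, and KRT10 alone was bright. The leukocyte genes PTPRC and CD3E and the keratinocyte genes KRT5 and KRT14 were below the measured range. Among the measured markers outside the melanocyte list 0 were called against siCTR, while against NO the leukocyte gene CD14 was called higher (1.64) and ITGAM lower (-1.33). ACTB, read for RNA integrity, had a 3′ over 5′ ratio of 1.13 on both siPIR arrays and of 1.23 to 1.27 on the 4 control arrays. The part of this ratio and of the marker levels in the differences below was not tested.

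The siPIR pool was set against both controls to see which transcripts differ when PIR is knocked down. Replication genes were lower in the siPIR pool almost throughout. Calls needed a log2 difference of 1 or more between pool means, with both arrays of one pool beyond both of the other. Of the 56 genes, 30 were called lower in siPIR than in siCTR, where 4.21% of all measured genes were called lower. Against NO, 29 were called lower, with a background of 5.4%. The 28 called lower in both comparisons stand beside a background of 3.2%, and 0 were called higher in either, where 3.66% of measured genes were called higher than siCTR, 3.6% higher than NO and 1.47% higher than both. In 55 of the 56 genes both siPIR arrays lay below all 4 control arrays, which was so in 23.1% of measured genes. The exception was RFC5, whose probe sets disagreed and are described with the clamp loader. Both comparisons share the siPIR arrays, so the second does not repeat the first independently. The list was chosen with earlier results of these data known, so its excess over the background is not independent of that choice.

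The median log2 difference of the 56 genes was -1.05 against siCTR (-1.95 to 0.08) and -1.07 against NO (-1.93 to 0.06). Over all measured genes the medians were 0.05 and 0.03. Between the controls, siCTR minus NO, the 56 genes had a median of 0.04 and ranged from -0.49 (ORC6) to 0.54 (FEN1), and 0 were called, where 3.39% of measured genes were called in either direction, 2.4% lower and 0.996% higher. The siPIR pool thus stood apart from 2 control pools that lay close together for these genes. Of the 56, 50 were bright, and 24 of these were called lower than both controls, with a background of 3.4% among bright genes. In RNA from whole cultures, fewer cells in S phase and less of these RNAs per cell cannot be told apart.

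**Figure D1:**
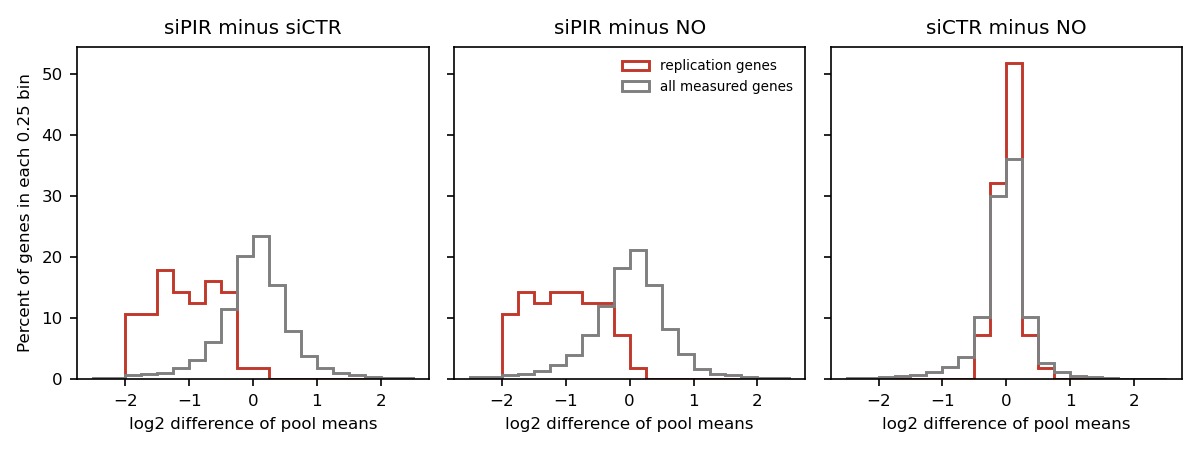
Percent of genes (y axis) in bins of 0.25 of the log2 difference of pool means (x axis), for the 56 replication genes (red) and the 13053 measured genes (grey), with larger differences placed in the outermost bins. The red outline lies left of the grey one in both siPIR panels, with medians of -1.05 and -1.07, and on top of it between siCTR and NO, with a median of 0.04.

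By role, the licensing loaders and inhibitor had the largest median difference from siCTR and helicase activation the largest from NO, and the origin recognition complex had the smallest from both. All 3 licensing loaders and inhibitor genes were called lower than both controls, as were 5 of 6 MCM2-7 genes, 8 of 10 genes of helicase activation and the lone other MCM gene, MCM8. In contrast 1 of 6 ORC genes, 3 of 10 polymerase and primase genes and 3 of 6 clamp and clamp loader genes were called. The counts were 3 of 5 for fork protection and Cdt1 turnover, 1 of 3 for Okazaki fragment processing, 0 of 3 for the single-strand binding protein RPA and 0 of 3 for chromatin assembly. Median differences from siCTR ran from -1.47 (licensing loaders and inhibitor) and -1.42 (MCM2-7) to -0.71 (polymerases and primase), -0.66 (RPA) and -0.44 (ORC), and those from NO were -1.30, -1.31, -0.75, -0.75 and -0.30 for the same groups. Helicase activation had medians of -1.26 from siCTR and -1.43 from NO, so the order of the groups depends on the control. Differences between roles were not tested, as members of a group are not replicates.

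**Figure D2:**
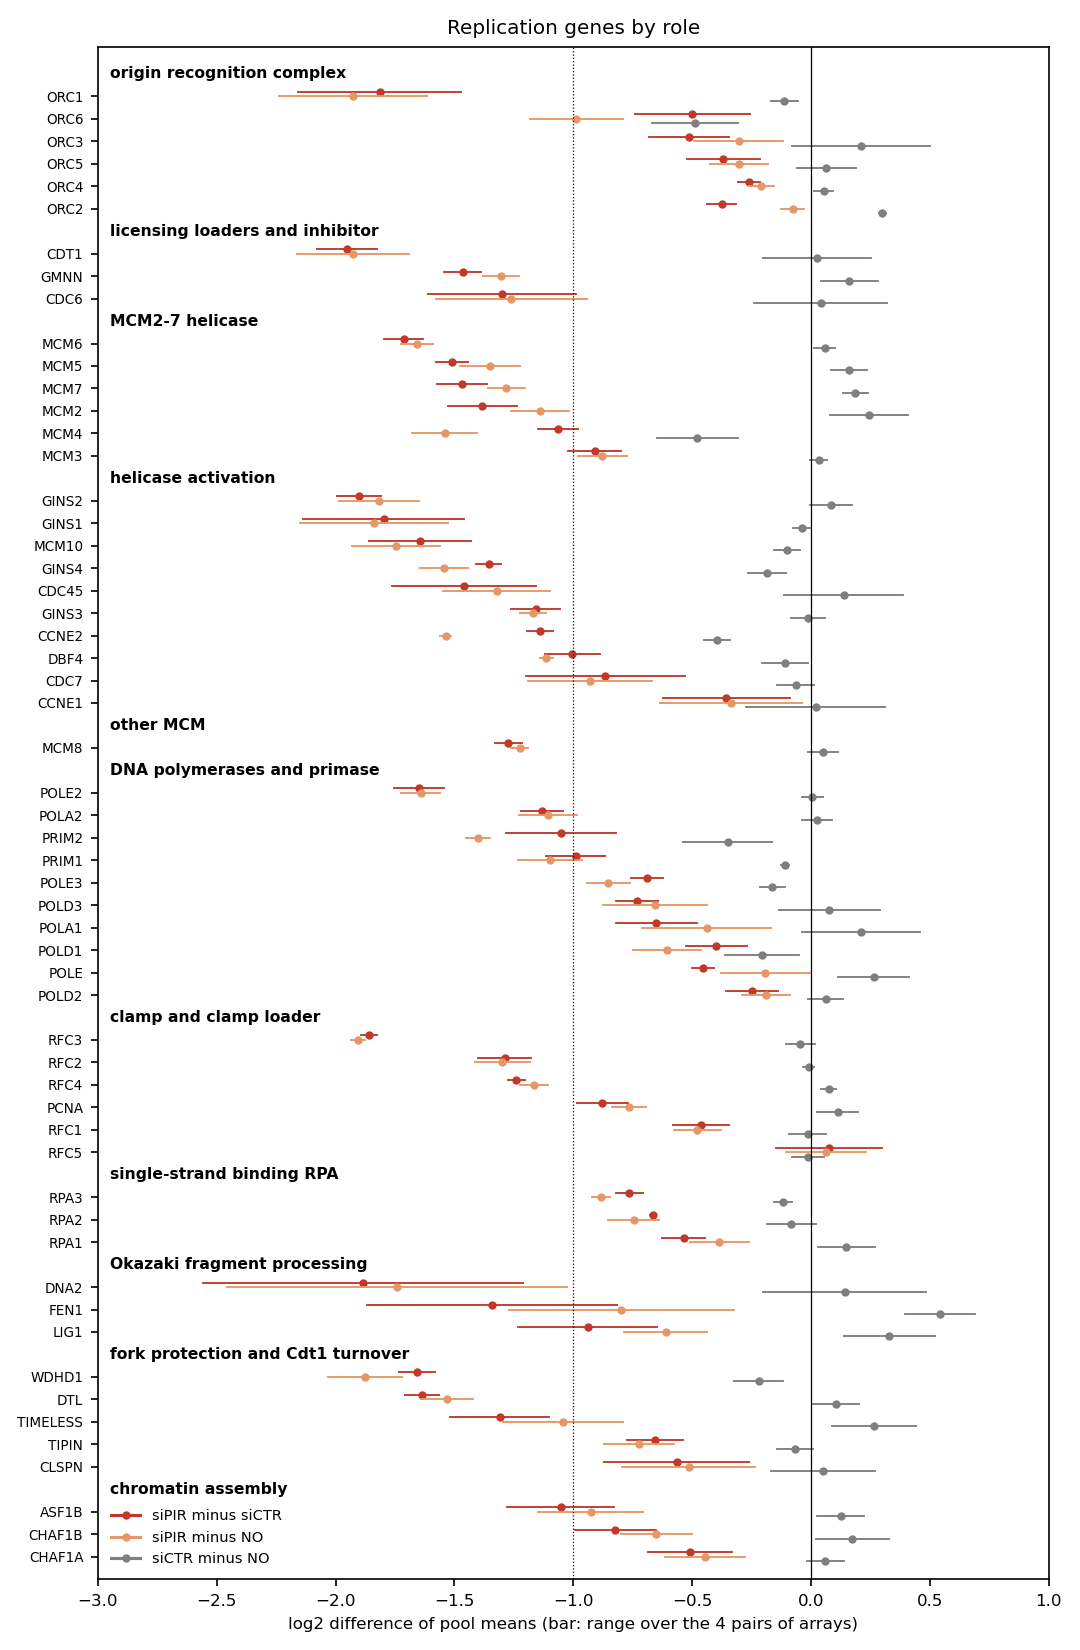
Log2 difference of pool means (x axis) for each replication gene, ordered within its role by the smaller of its 2 siPIR differences, with siPIR minus siCTR in red, siPIR minus NO in orange and siCTR minus NO in grey, bars giving the range over the 4 pairs of arrays and the dotted line the size that makes a call. Red and orange points lie left of 0 for every gene except RFC5, while grey points stay between -0.49 and 0.54.

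The origin recognition complex binds origins and is needed to load the helicase, and 1 of its 6 subunit genes was called lower. ORC1, the subunit whose level is known to change through the cell cycle in human cells, had signals of 106.0 and 68.1 in siPIR, 303.4 and 322.3 in siCTR, and 341.2 and 335.4 in NO. The siPIR values lay far below the others, with a difference of -1.81 against siCTR (-2.16 to -1.47 over the array pairs) and -1.93 against NO (-2.24 to -1.61). ORC2, a core subunit, had signals of 690.7 and 645.8 in siPIR, 860.4 and 876.6 in siCTR, and 704.2 and 704.7 in NO. Its siPIR arrays were the lowest of the 6 but close to the NO arrays, with differences of only -0.38 against siCTR and -0.08 against NO. ORC4 gave 1855 and 1781 in siPIR, 2203 and 2156 in siCTR, and 2138 and 2065 in NO, and ORC5 gave 1632 and 1471 in siPIR, 1898 and 2114 in siCTR, and 1854 and 1978 in NO. Each was slightly lower in siPIR, with differences of -0.26 against siCTR and -0.21 against NO for ORC4 and -0.37 against siCTR and -0.30 against NO for ORC5. A second ORC4 probe set gave 0.09 and 0.04. Of the other ORC5 probe sets, 1 gave -0.49 and -0.79, and a dim one gave 0.45 (-0.10 to 1.00 over the array pairs) and 0.07 (-0.70 to 0.85). ORC3 differed by -0.51 against siCTR and -0.30 against NO. ORC6, a small subunit that is loosely bound to the complex in human cells, differed by -0.50 against siCTR and -0.99 against NO and also by -0.49 between siCTR and NO. The array-pair ranges of ORC1 did not overlap those of any other ORC gene.

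CDC6 and CDT1 bring MCM2-7 to ORC-bound DNA, and geminin, encoded by GMNN, inhibits CDT1 outside G1. CDT1 had signals of 258.4 and 284.1 in siPIR, 1108 and 1021 in siCTR, and 1175 and 928.4 in NO. Its differences were -1.95 against siCTR (-2.08 to -1.83 over the array pairs) and -1.93 against NO (-2.16 to -1.69), which makes it 3.87-fold lower than in siCTR, the largest of the list. Against NO it was level with ORC1. Its probe set carries the suffix _x_at and may bind other transcripts, and the other CDT1 probe set, which is dimmer, differed by -0.71 and -0.86. CDC6 had signals of 620.9 and 486.4 in siPIR, 1238 and 1498 in siCTR, and 1463 and 1198 in NO. The differences were -1.30 against siCTR and -1.26 against NO, and its other probe set gave -1.25 and -1.26. GMNN had signals of 1319 and 1289.8 in siPIR, 3768 and 3461 in siCTR, and 3363 and 3098 in NO. Its siPIR arrays lay below all control arrays, with differences of -1.47 against siCTR and -1.30 against NO. CDT1 and its inhibitor were thus both called lower in the same pool.

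The 6 MCM2-7 genes encode the subunits of the helicase ring, which is present in cells in excess of the origins used. MCM2 had signals of 621.8 and 578.5 in siPIR, 1679 and 1472 in siCTR, and 1394 and 1265 in NO, and MCM3 had 2291 and 2020.2 in siPIR, 4107 and 3988 in siCTR, and 3924 and 3994 in NO. Both were lower in siPIR without overlap. MCM2 differed by -1.38 against siCTR (-1.53 to -1.24 over the array pairs) and -1.14 against NO (-1.26 to -1.02). For MCM3 the difference was -0.91 against siCTR (-1.02 to -0.80 over the array pairs) and -0.88 against NO (-0.98 to -0.78). MCM3 was the one subunit of the ring that did not reach the size for a call. MCM4 had signals of 730.1 and 755.1 in siPIR, 1624 and 1493 in siCTR, and 2010.4 and 2346 in NO. Its difference was larger against NO than against siCTR, -1.06 against siCTR (-1.15 to -0.98 over the array pairs) and -1.54 against NO (-1.68 to -1.41), and siCTR itself differed from NO by -0.48. MCM4 was also the gene of the ring with the most probe sets above the filter, and its 4 gave -1.71 to -0.75 against siCTR and -1.59 to -1.15 against NO. MCM5 had signals of 1067 and 982.0 in siPIR, 2943 and 2909 in siCTR, and 2739.8 and 2496 in NO, with differences of -1.51 against siCTR and -1.35 against NO. MCM6 had 1741 and 1620.0 in siPIR, 5403 and 5637 in siCTR, and 5248 and 5361 in NO and the largest difference of the ring, -1.71 against siCTR (-1.80 to -1.63 over the array pairs) and -1.66 against NO (-1.72 to -1.59), which is 3.28-fold below siCTR. MCM7 had 1956 and 1789 in siPIR, 5034 and 5333 in siCTR, and 4591 and 4515 in NO and differed by -1.47 against siCTR and -1.28 against NO. The array-pair ranges of MCM3 and MCM6 do not overlap in either comparison. Those ranges hold hybridisation error only, and probe sets of a single gene lay as far apart, as for MCM4. Whether the subunits differed unequally was not tested. A second MCM6 probe set read 3.6 and 52.8 in siPIR, too far apart to give a size.

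**Figure D3:**
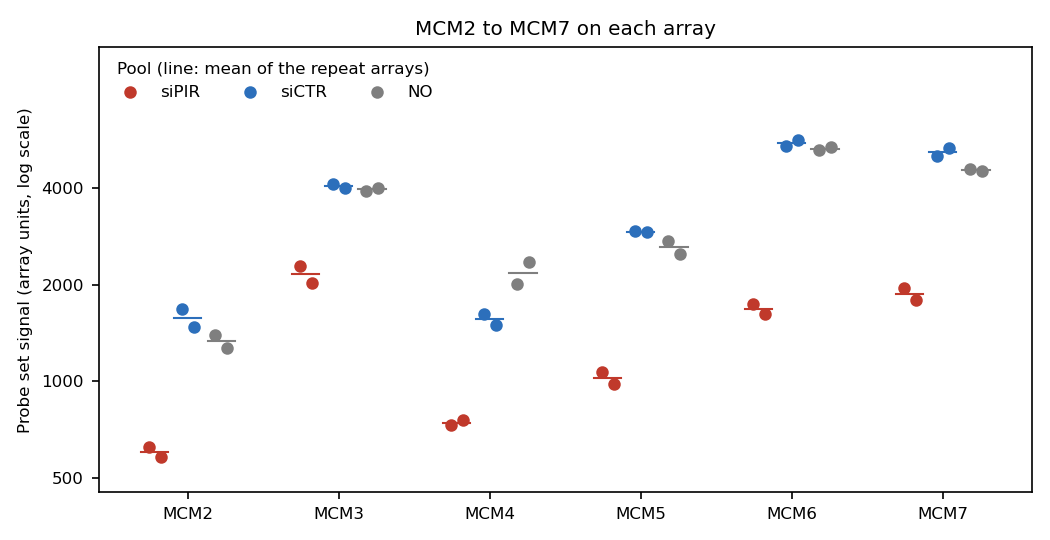
Probe set signal (y axis, log scale) of the 6 genes of the MCM2-7 ring on each array (points), with the mean of the repeat arrays of a pool as a line, for siPIR (red), siCTR (blue) and NO (grey). Both siPIR points lie below all 4 control points for each gene, most closely for MCM3, and signals of different genes cannot be set against each other.

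Of the 10 genes that turn the loaded ring into a moving helicase, 8 were called lower than both controls. The 4 GINS genes, which with CDC45 and MCM2-7 form the active helicase, were all called lower than both controls. GINS2 had signals of 511.4 and 453.3 in siPIR, 1805 and 1819 in siCTR, and 1813 and 1616 in NO, with differences of -1.90 against siCTR (-1.99 to -1.81 over the array pairs) and -1.82 against NO (-1.99 to -1.65). It had the largest difference of these genes from siCTR, and GINS1 from NO. The GINS1 ranges over the array pairs, -2.14 to -1.46 against siCTR and -2.15 to -1.53 against NO, cover those of GINS2. The arrays therefore do not rank these 2 genes. The 2 dimmer GINS2 probe sets gave -1.16 and -0.90 against siCTR. GINS1 differed by -1.80 against siCTR and -1.84 against NO, GINS3 by -1.16 against siCTR and -1.17 against NO and GINS4 by -1.36 against siCTR and -1.54 against NO. GINS4 had signals of 133.0 and 126.2 in siPIR, 343.6 and 336.8 in siCTR, and 370.4 and 406.0 in NO, and its other probe set above the filter gave -1.64 and -1.78. Of the 2 GINS4 probe sets below the filter, 1 was higher in siPIR by 0.43 and 1.05 and the other gave 0.84 and -1.39. CDC45 differed by -1.46 against siCTR and -1.32 against NO, and MCM10, a helicase cofactor that is no ring subunit, by -1.64 against siCTR and -1.75 against NO. Over the 11 genes of the active helicase (CDC45, 4 GINS and 6 MCM), 10 were called lower than both controls and the median differences were -1.46 and -1.35.

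The kinase genes were less even. CDC7, the catalytic subunit of the kinase that phosphorylates MCM2-7, gave 234.1 and 337.1 in siPIR, 489.6 and 543.9 in siCTR, and 538.7 and 540.5 in NO and differed by -0.86 against siCTR and -0.93 against NO, without a call. DBF4, its activating subunit, differed by -1.004 against siCTR (-1.12 to -0.89 over the array pairs) and -1.11 against NO (-1.14 to -1.09), just past the size for a call. Against siCTR it was -0.98 without siPIR replicate 2 and -0.91 without siCTR replicate 2, and the call was lost. The 2 E-type cyclins, partners of CDK2 at the start of S phase, parted. CCNE1 had signals of 453.5 and 374.5 in siPIR, 579.5 and 482.5 in siCTR, and 465.4 and 584.0 in NO, so the siPIR arrays lay close under the control arrays and the difference was -0.36 against siCTR (-0.62 to -0.09 over the array pairs) and -0.34 against NO (-0.63 to -0.04). CCNE2 had signals of 356.5 and 362.0 in siPIR, 823.3 and 775.2 in siCTR, and 1044 and 1062 in NO and was called lower, with differences of -1.14 against siCTR (-1.20 to -1.09 over the array pairs) and -1.54 against NO (-1.56 to -1.51). Their array-pair ranges did not overlap. CCNE2 also differed by -0.40 between siCTR and NO. Its dimmer probe set gave -0.88 against siCTR, short of the size for a call, and -1.13 against NO. A second, dim probe set of CCNE1 with a mean signal of 17.6 was higher than siCTR by 0.99, below the measured range. MCM8, which works with MCM9 mainly in recombination repair, had signals of 482.7 and 492.8 in siPIR, 1222 and 1152 in siCTR, and 1130.2 and 1164 in NO and differed by -1.27 against siCTR and -1.22 against NO. A dimmer MCM8 probe set gave -0.64 against siCTR, short of the size for a call, and -1.14 against NO.

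Of the 10 polymerase and primase genes, POLE2, POLA2 and PRIM2 were called lower than both controls. POLE2, the second subunit of the leading strand polymerase epsilon, had signals of 398.3 and 360.2 in siPIR, 1227 and 1171 in siCTR, and 1203 and 1185 in NO. It differed by -1.65 against siCTR (-1.75 to -1.54 over the array pairs) and -1.64 against NO (-1.72 to -1.56), the largest difference of the 10 polymerase and primase genes. POLA2, the second subunit of polymerase alpha, had 451.1 and 500.4 in siPIR, 1038 and 1058 in siCTR, and 1065 and 994.1 in NO and was called lower, with differences of -1.13 against siCTR and -1.11 against NO. Its dimmer probe sets did not settle the size, since 1 gave -0.95 and -0.85 and another, with siCTR signals of 7.9 and 110.0, gave 1.22 and -0.07. The primase genes PRIM1 and PRIM2, which make the RNA primers, differed by -0.99 against siCTR and -1.10 against NO for PRIM1 and -1.05 against siCTR and -1.40 against NO for PRIM2, and PRIM1 missed the call against siCTR. Without siCTR replicate 1 PRIM2 differed from siCTR by -0.87 and was not called, and without siPIR replicate 2 PRIM1 was called. The catalytic chains POLA1, POLD1 and POLE differed by -0.65 to -0.40 against siCTR and by -0.60 to -0.19 against NO, with 0 of 3 called. POLD2, a subunit of the lagging strand polymerase delta, had signals of 3579.8 and 3259 in siPIR, 4180.1 and 3946 in siCTR, and 3806 and 3981 in NO. Its arrays were nearly level, with differences of -0.25 against siCTR (-0.36 to -0.14 over the array pairs) and -0.19 against NO (-0.29 to -0.09). POLD3 differed by -0.73 against siCTR and -0.66 against NO. POLE3, a histone-fold subunit of polymerase epsilon, differed by -0.69 against siCTR and -0.85 against NO.

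PCNA is the sliding clamp that holds polymerases on DNA, and the clamp loader RFC, made of RFC1 to RFC5, places it there. PCNA had signals of 6719 and 7168 in siPIR, 12224 and 13310.2 in siCTR, and 11607 and 12006 in NO. It was lower in siPIR without overlap, with differences of -0.88 against siCTR (-0.99 to -0.77 over the array pairs) and -0.77 against NO (-0.84 to -0.69), and was not called. RFC3 had signals of 869.0 and 869.7 in siPIR, 3098 and 3245 in siCTR, and 3210.2 and 3334 in NO, and the difference of -1.86 against siCTR (-1.89 to -1.83 over the array pairs) and -1.91 against NO (-1.93 to -1.88) is the second largest of the list when the smaller of the 2 comparisons is taken. Other RFC3 probe sets gave -2.22 and -0.52 against siCTR. RFC2 and RFC4 were called lower as well, with differences of -1.29 against siCTR and -1.30 against NO for RFC2 and -1.24 against siCTR and -1.17 against NO for RFC4. A second RFC2 probe set gave -0.76 against siCTR and -0.97 against NO, short of the size for a call. RFC1, the large subunit, differed by -0.46 against siCTR and -0.48 against NO and was not called. The RFC1 values, like those of ORC6 and CHAF1A, come from an _x_at probe set and are uncertain in the same way as those of CDT1.

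RFC5 is where the choice of probe set decided the result. The brightest probe set had signals of 2495 and 3131 in siPIR, 2766 and 2542 in siCTR, and 2663 and 2684 in NO, with overlapping arrays and differences of 0.08 against siCTR (-0.15 to 0.30 over the array pairs) and 0.06 against NO (-0.11 to 0.23). The next had 372.5 and 378.6 in siPIR, 966.5 and 1162 in siCTR, and 950.4 and 1073 in NO, a difference of -1.48 against siCTR and -1.41 against NO. The third had 196 and 214 in siPIR, 446 and 461 in siCTR, and 667 and 541 in NO, with differences of -1.13 and -1.53. Both of these would be called lower than each control. The transcripts each probe set measures were not examined here, so the direction of RFC5 is not settled.

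RPA coats the single-stranded DNA behind the helicase. RPA1, its large subunit, had signals of 3586 and 3354 in siPIR, 4880.0 and 5176 in siCTR, and 4782 and 4298 in NO and RPA3, the smallest, had 3985 and 3832 in siPIR, 6776 and 6509.8 in siCTR, and 7160.4 and 7259 in NO. The siPIR arrays were the lowest in both, but the differences were only -0.53 against siCTR and -0.39 against NO for RPA1 and -0.76 against siCTR and -0.88 against NO for RPA3. RPA2 lay between, at -0.66 against siCTR and -0.75 against NO. Thus 0 of 3 were called by the brightest probe set, against 5 of 6 genes of the MCM ring in the same arrays. Of the other RPA1 probe sets, 1 gave -0.21 against siCTR and -0.49 against NO. A dimmer one gave -0.95 against siCTR and -1.05 against NO, so the size for RPA1 depends on the probe set.

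Lagging strand fragments are trimmed by the nucleases FEN1 and DNA2 and joined by the ligase LIG1. DNA2 had signals of 128.6 and 59.6 in siPIR, 305.0 and 376.8 in siCTR, and 267.5 and 351.5 in NO. The repeat siPIR arrays were 1.04 apart on the log2 scale, the widest gap of any replication gene, and the difference was -1.88 against siCTR (-2.56 to -1.21 over the array pairs) and -1.74 against NO (-2.46 to -1.03). FEN1 had signals of 2021 and 1118 in siPIR, 3562 and 4088 in siCTR, and 2706 and 2533 in NO. Its siPIR arrays were also far apart, and siCTR was higher than NO by 0.54, so FEN1 was called lower against siCTR (-1.34) and not against NO (-0.80). A second FEN1 probe set gave -0.91 and -0.82. LIG1 had signals of 379.0 and 312.5 in siPIR, 597.1 and 741.0 in siCTR, and 514.4 and 542.4 in NO and differed by -0.94 against siCTR and -0.61 against NO, without a call.

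Fork protection is the work of TIMELESS, TIPIN, the checkpoint mediator CLSPN and WDHD1, which ties the helicase to polymerase alpha, while DTL directs the destruction of CDT1 at PCNA. WDHD1 had signals of 179.3 and 163.9 in siPIR, 547.8 and 556.8 in siCTR, and 603.8 and 686.1 in NO. It was called lower, with differences of -1.66 against siCTR (-1.73 to -1.58 over the array pairs) and -1.88 against NO (-2.03 to -1.72), and all 3 of its probe sets lay between -1.99 and -1.35 in the 2 comparisons. DTL differed by -1.64 against siCTR and -1.53 against NO and TIMELESS by -1.31 against siCTR and -1.04 against NO. TIMELESS lost the call against NO without siPIR replicate 2 (-0.90) or NO replicate 2 (-0.93). TIPIN, the binding partner of TIMELESS, differed by -0.65 against siCTR and -0.72 against NO and was not called. CLSPN had signals of 105.9 and 81.0 in siPIR, 152.5 and 127.8 in siCTR, and 125.6 and 144.3 in NO, and its brightest probe set differed by -0.56 against siCTR and -0.51 against NO. The other CLSPN probe sets above the filter gave -1.17 and -1.19 against siCTR and -1.74 and -0.27 against NO, so the size for this dim gene is uncertain.

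The chromatin assembly genes encode histone chaperones that place nucleosomes on new DNA. ASF1B had signals of 664.0 and 846.8 in siPIR, 1617 and 1506 in siCTR, and 1384 and 1478 in NO. It was called lower against siCTR (-1.05) and missed the size against NO (-0.93). CHAF1A, the large subunit of CAF-1, had signals of 559.3 and 674.3 in siPIR, 849.1 and 901.6 in siCTR, and 859.6 and 818.3 in NO and differed by -0.51 against siCTR and -0.45 against NO. Of the other CHAF1A probe sets, 2 gave -0.40 and -0.76 against siCTR, and 1 below the filter gave 0.49. CHAF1B, the middle subunit, differed by -0.82 against siCTR and -0.65 against NO. All 3 were lower in siPIR without overlap, and 0 were called against both controls.

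Across the list, 103 probe sets were annotated to these genes alone, and 95 passed the filter. Of the 95, 91 were lower in siPIR than in each control and 46 were called lower than both. The share over all probe sets was not computed, and the backgrounds given above are per gene, so these counts have no background of their own. In 27 genes with several probe sets above the filter, 17 were called by the brightest one, and in 9 of these every probe set above the filter was called. The probe sets of 4 genes lay more than 1 apart in their difference from siCTR, namely POLA2, RFC3, RFC5 and CDT1. Of the 8 probe sets below the filter, 4 were higher than at least 1 control.

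**Figure D4:**
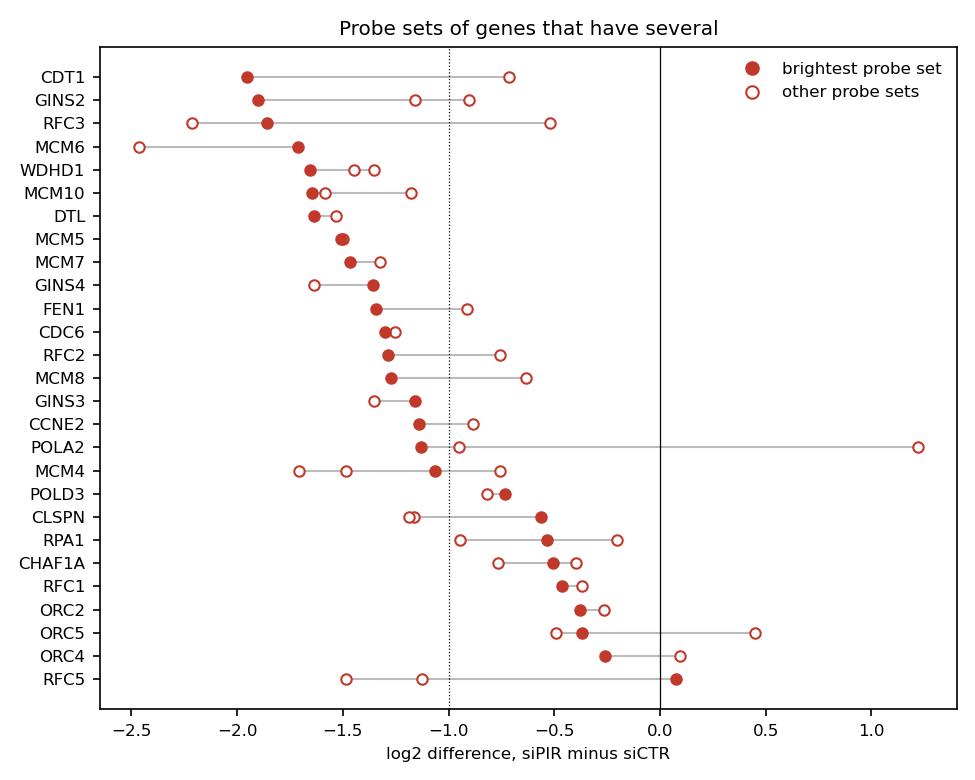
Log2 difference siPIR minus siCTR (x axis) for every probe set above the filter of the 27 replication genes that have several, with the brightest probe set filled and the others open. Most genes keep all points left of 0, RFC5 has its filled point at 0.08 and both open points below -1, and POLA2 has 1 open point at 1.22.

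Other genes of DNA replication, from a list of 42 with 39 measured, were also examined. Of the 39, 9 were called lower than siCTR, 8 lower than NO and 7 lower than both, with backgrounds of 4.21%, 5.4% and 3.2%. Against either control 0 were called higher, with backgrounds of 3.66% and 3.6%, and the medians were -0.73 and -0.68. The 5 with the largest differences were CCNA2, cyclin A2 (-1.96 and -1.84), FBXO5, the APC/C inhibitor EMI1 (-1.74 and -2.0004), UHRF1, which guides maintenance DNA methylation (-1.37 and -1.71), RNASEH2B, a subunit of RNase H2 (-1.36 and -1.53), and MTBP, a partner of the origin firing factor TICRR (-1.27 and -2.25). MTBP is dim, with signals of 31.7 and 12.8 in siPIR, 57.5 and 56.9 in siCTR, and 149.8 and 92.7 in NO, and differed by -0.98 between the controls.

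For scale, calls below both controls were made for 4 of 21 measured genes of nucleotide synthesis (medians -0.37 and -0.24) and for 15 of 33 measured genes of mitotic kinases, checkpoint and APC/C (medians -1.24 and -0.98). The 28 of 56 replication genes were thus a share of 50%, against 19.0% and 45.5% in those lists. Among the other genes of DNA replication above the share was 17.9%, and over all measured genes it was 3.2%. Differences between lists were not tested.

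Promoters of the genes with the largest and the smallest differences are shown because members that were lower together include many known E2F targets. They are RefSeq sequences of GRCh38.p14, each 300 bases from 250 before to 50 after the annotated start, read 5′ to 3′ on the strand of the gene, with matches to the E2F motif in capitals. CDT1, RFC3 and GINS2 had the largest differences when the smaller of the 2 comparisons is taken, and RFC5 and ORC2 the smallest, among genes with a promoter in the table. RFC5 ranks there by its brightest probe set alone, since its other 2 probe sets were lower. The windows are CDT1 at chr16:88803539-88803838 (plus strand), RFC3 at chr13:33817899-33818198 (plus strand), GINS2 at chr16:85688905-85689204 (minus strand), RFC5 at chr12:118016453-118016752 (plus strand) and ORC2 at chr2:200963611-200963910 (minus strand).
CDT1: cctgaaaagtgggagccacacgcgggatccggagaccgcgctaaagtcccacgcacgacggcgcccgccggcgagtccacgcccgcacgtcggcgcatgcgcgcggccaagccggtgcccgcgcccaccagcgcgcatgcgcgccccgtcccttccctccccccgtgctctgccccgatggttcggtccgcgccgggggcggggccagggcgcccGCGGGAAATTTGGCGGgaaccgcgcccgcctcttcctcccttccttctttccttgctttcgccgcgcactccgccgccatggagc
RFC3: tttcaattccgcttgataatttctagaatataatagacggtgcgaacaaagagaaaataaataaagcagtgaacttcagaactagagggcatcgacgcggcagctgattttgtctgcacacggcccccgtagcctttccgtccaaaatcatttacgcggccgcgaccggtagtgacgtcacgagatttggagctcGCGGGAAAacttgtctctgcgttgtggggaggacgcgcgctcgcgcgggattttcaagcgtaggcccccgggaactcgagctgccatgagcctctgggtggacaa
GINS2: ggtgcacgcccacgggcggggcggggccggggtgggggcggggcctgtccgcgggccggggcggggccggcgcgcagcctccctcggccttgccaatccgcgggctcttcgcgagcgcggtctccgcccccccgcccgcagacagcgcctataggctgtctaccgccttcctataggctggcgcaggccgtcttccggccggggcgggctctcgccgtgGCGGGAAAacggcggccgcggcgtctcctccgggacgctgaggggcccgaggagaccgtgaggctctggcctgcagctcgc
RFC5: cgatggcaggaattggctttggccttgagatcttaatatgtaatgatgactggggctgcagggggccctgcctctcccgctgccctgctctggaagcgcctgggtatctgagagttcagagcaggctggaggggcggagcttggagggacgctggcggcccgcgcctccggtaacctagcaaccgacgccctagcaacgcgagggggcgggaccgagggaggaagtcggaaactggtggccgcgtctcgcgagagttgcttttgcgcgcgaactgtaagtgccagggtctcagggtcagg
ORC2: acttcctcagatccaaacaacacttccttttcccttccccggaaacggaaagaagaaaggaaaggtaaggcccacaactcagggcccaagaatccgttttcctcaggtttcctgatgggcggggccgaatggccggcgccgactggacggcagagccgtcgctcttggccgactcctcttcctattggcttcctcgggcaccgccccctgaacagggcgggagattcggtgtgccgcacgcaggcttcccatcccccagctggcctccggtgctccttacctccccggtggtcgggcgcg
CDT1 holds 2 adjacent matches, the first beginning 35 bases before the start and the second 27, RFC3 holds 1 that begins 55 bases before it, and GINS2 holds 1 that begins 31 bases before it. The RFC5 and ORC2 windows hold 0, which says only that these letters are not in these windows.

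The E2F motif was searched on both strands as TTTCCCGC, TTTCCCGG, TTTCGCGC, TTTCGCGG, TTTGCCGC, TTTGCCGG, TTTGGCGC and TTTGGCGG. The CHR motif of mitotic promoters was searched as TTTGAA and TTCGAA, neither of which is contained in an E2F string. Of the 56 genes, 48 matched a RefSeq entry, with 61 promoters in all. The E2F motif was in 28 of the 61, or 45.9%, against 6.19% of all 35116 promoters of the same length. It was in 58.6% of the 29 promoters of genes called lower than both controls and in 34.4% of the 32 promoters of genes not called. Conversely, 16 of the 27 genes with the motif were called, with medians of -1.27 and -1.17 against siCTR and NO, and 7 of the 21 without it, with medians of -0.82 and -0.85. The 7 called without a match in their window were DBF4, ORC1, PRIM2, RFC2, RFC4, TIMELESS and WDHD1. The CHR motif was in 4 of the 61 promoters, or 6.56%, against 16.4% of all promoters. Base composition, on which the rates of both motifs can depend, was not matched between the sets. A match is a description of the sequence and not evidence of binding. Many of the listed genes are known E2F targets, and the motifs were chosen after the promoters were seen. The E2F shares, and their split by call, are therefore not independent of those choices.

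**Figure D5:**
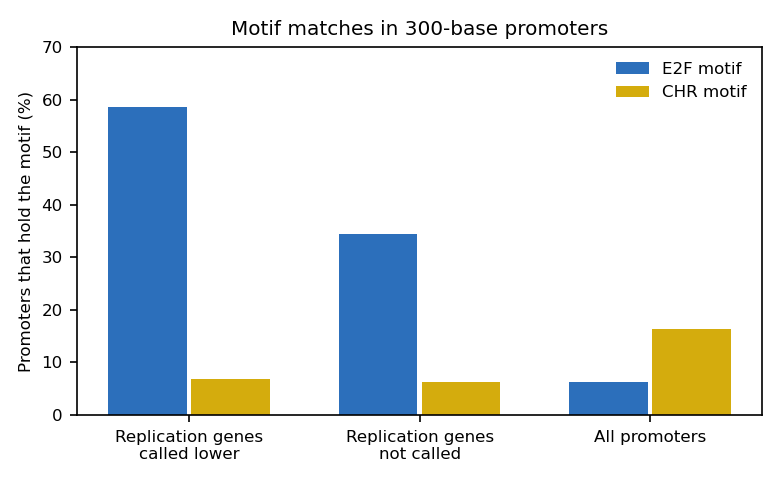
Percent of 300-base promoters (y axis) that hold the E2F motif (blue) or the CHR motif (yellow), for replication genes called lower than both controls (29 promoters), those not called (32 promoters) and all 35116 promoters. The E2F bars stand at 58.6%, 34.4% and 6.19%, and the CHR bars are lower in both sets of replication genes than over all promoters. The motifs were chosen after the promoters were seen, and base composition was not matched between the sets.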

How the data were processed

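The authors deposited 1 linear intensity per probe set and array, made with GCOS, per the submitters' processing notes. What scaling was set in GCOS is not given in the sources used here. The mean of each array, leaving out 2% of probe sets at each end, was 500.1, as global scaling leaves it, so a change in total RNA per cell cannot be seen. All 6 columns were matched to samples and 0 were left. The 2 arrays of a pool are technical repeats. They were averaged as log2(intensity + 5.4), where 5.4 is the 10th percentile of the values, so that the differences of dim genes come out too small. Of 54675 probe sets, 41097 had 1 gene symbol in GEO's platform annotation, 1801 several and 11777 none, and 99.9% of the first matched RefSeq by Entrez identifier. The brightest probe set by mean log2 value stands for a gene. The members, role groups and lists were chosen with earlier results of these data known, and the motifs after the promoters were seen. With 1 pool per group no test was run. Calls follow size and array overlap. Array values are given for MCM2-7, the largest and smallest difference of each role group, genes whose probe sets disagree and a few others chosen after their values were seen. ATRIP, MMS22L, LRWD1, ADSS2, ANAPC1 and DCT were not analysed here. Alternatives were the pseudocount, probe set choice, normalization, filter, call size and leaving out each array. Python 3.11.15, pandas 2.3.3 and numpy 2.4.6 were used. The number of arrays limits the precision.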

Additional observations from a re-analysis of the deposited data

How the results depend on the processing

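The counts of 30, 29 and 28 replication genes called lower than siCTR, NO and both stayed within 1.5 times their value under all 15 alternatives, and 0 were called between siCTR and NO under each. The median difference from siCTR, -1.05, was -1.02 at 4 times the pseudocount and -0.97 as the mean over probe sets. It was -1.004 without _x_at and _s_at probe sets where a gene had another, and -1.10 to -1.05 with an array left out. The median difference from NO, -1.07, was -1.04, -0.94 and -0.99 under the same settings in that order. It was -1.01 among bright genes alone, and -1.10 to -1.01 with an array left out. Leaving out _x_at and _s_at probe sets put RFC1, TIMELESS and CHAF1A below the filter, so they did not enter that median. Genes with only such probe sets kept them. Of the 28 genes called lower than both, 21 kept the call under all 12 alternatives run gene by gene. CDT1 is among the 21, but both its probe sets carry such a suffix, so its _x_at probe set was never replaced. The mean over both gave -1.33 and -1.39, while the dimmer one alone gave -0.71 and -0.86, short of a call. DBF4 lost the call under 5, TIMELESS under 4, POLA2 under 2 and GINS4, MCM8, PRIM2 and RFC2 under 1 each. With an array left out, probe sets and filter were kept as they were. FEN1 was called without siPIR replicate 1 (-1.22 from NO), and CDC7, PRIM1 and ASF1B without siPIR replicate 2 (-1.12, -1.11 and -1.23 from siCTR). Over all measured genes, calls against both controls numbered 418 lower and 192 higher, against 650 and 414 with no filter, 979 and 819 with a 1.5-fold call, and 281 and 75 among bright genes. By construction, a smaller call size or no filter can only add calls, and a stricter filter can only remove them. The repeat siPIR arrays lay more than 0.5 apart on the log2 scale for 5 replication genes, DNA2, FEN1, GINS1, ORC1 and CDC7. In siCTR and in NO 0 genes of the list did so. The gap was widest for DNA2 and FEN1, which limits what can be read there. No paired analysis was possible because the replicate numbers mark repeat arrays of 1 pool and no result comes from a test.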
